A study of Mus musculus with 6 samples.

Results

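Chromatin accessibility was described at the Hox genes, 39 homeobox genes that the mouse carries in 4 clusters, in ATAC-seq of the quadriceps femoris, a knee extensor of the thigh. The members were all peaks whose annotated gene in the deposited table was a Hox gene of cluster a, b, c or d. This gave 56 of 75134 peaks. The values below are for 53 of them, assigned to 23 of the 38 genes described, and counts and sums over Hox peaks or genes cover these. In ATAC-seq the transposase Tn5 inserts sequencing adapters where DNA is not wrapped in nucleosomes, so the counts in a peak measure open chromatin and not transcripts. The series held 3 libraries from mice with an intact Prr14 gene (Prr14-WT, replicates 3, 4 and 8) and 3 from mice without it (Prr14-KO, replicates 4, 5 and 7), made from nuclei of frozen muscle. The labels give neither age, sex nor strain, nor the deleted part of Prr14 or the cells that lost it. Whether each library is a different animal is not stated, so a p-value reflects only the spread among these libraries, which may be technical. Nuclei of all cell types were pooled, so at any peak fewer cells of a type and less open chromatin per cell cannot be told apart.

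Hox genes encode homeodomain transcription factors that specify position along the body axis and along the limb. Their order along a cluster follows the order of their expression domains, from paralogue 1 at the head end to paralogue 13 at the tail end. Polycomb complexes keep the unused stretches of a cluster closed, trithorax complexes keep the used stretches open, and adult connective tissue and muscle retain much of the embryonic pattern. Prr14 encodes a protein of the nuclear periphery that tethers heterochromatin to the nuclear lamina through heterochromatin protein 1.

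Counts in peaks came to 7608514 to 12061822 per library. All 10 muscle fibre markers examined had peaks, with a summed level of 3201 to 5007 counts per 1000000 (CPM) in Prr14-WT and 3005 to 3283 in Prr14-KO. The single peak annotated to Prr14, over its promoter, had 62.0 ± 4.71 CPM in Prr14-WT and 60.5 ± 9.75 in Prr14-KO (SD, n = 3 each; edgeR quasi-likelihood test, Benjamini-Hochberg adjusted p = 0.961). Since the deleted part is not given, this peak does not check the labels. The hindlimb factors Pitx1 and Tbx4 carried 67.9 ± 8.43 and 31.1 ± 7.60 CPM in Prr14-WT, each summed over 7 peaks. The forelimb factor Tbx5 carried 17.4 ± 4.04 CPM over 3 peaks. These sums grow with the number and length of peaks, so they do not rank the genes.

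Accessibility was concentrated in the Hoxa and Hoxc clusters. In Hoxa 8 of 10 genes had a peak and in Hoxc 8 of 9, against 4 of 10 in Hoxb and 3 of 9 in Hoxd. The peaks numbered 16 for Hoxa, 27 for Hoxc, 7 for Hoxb and 3 for Hoxd. Between the outer ends of its RefSeq genes described, Hoxa (GRCm38 chromosome 6, 52162417 to 52260880) was covered by Hox peaks over 16.8% of its length, and Hoxc (chromosome 15, 102921131 to 103036856) over 20.5%. Hoxb (chromosome 11, 96194316 to 96368254) was covered over 1.63%, and Hoxd (chromosome 2, 74668225 to 74765142) over 1.92%. The Hoxb span is lengthened by Hoxb13, which ends at 96196610, while the next gene, Hoxb9, starts at 96271330. No peak lay at or between these genes, so the share for Hoxb depends on counting that stretch.

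Summed over the peaks of a cluster, the Prr14-WT replicates 3, 4 and 8 had 512, 548 and 476 CPM at Hoxc and 316, 320 and 285 CPM at Hoxa. At Hoxb they had 34.9, 34.1 and 41.1 CPM, and at Hoxd 14.1, 15.6 and 14 CPM. The order Hoxc, Hoxa, Hoxb, Hoxd was the same in all 3 libraries, and no library of one cluster overlapped those of another. Per length of peak the gap was narrower and the order less clear. The Prr14-WT level was 17.1 ± 1.05 CPM per kb of peak at Hoxa and 15.3 ± 1.07 at Hoxc, with ranges of mean ± SD that overlap. It was 7.82 ± 0.476 at Hoxd and 7.59 ± 0.787 at Hoxb, also within their spread. Spread over the whole cluster, peaks within the gene span gave 3.40 ± 0.241 CPM per kb of cluster at Hoxc, 3.01 ± 0.200 at Hoxa, 0.150 ± 0.00912 at Hoxd and 0.0949 ± 0.0206 at Hoxb. The Hoxb value includes the stretch without peaks from Hoxb13 to Hoxb9, so Hoxb and Hoxd are not ranked by this measure. Hoxb and Hoxd thus had fewer peaks. Of the 3 Hoxd peaks that of Hoxd12, the widest, was low (4.48 ± 1.23 CPM per kb), while those of Hoxd3 (13.5 ± 2.17) and Hoxd10 (11.2 ± 1.23) were near the median of the Hox peaks.

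The 53 Hox peaks were wider than those of the whole table, with a median of 964 against 731 bases. In the deposited annotation 52.8% of them were of a promoter class, against 23.2% of all peaks, and 3.77% lay in introns, against 36.4%. Their median level in Prr14-WT was 12.8 CPM per kb, against 8.88 over all peaks. These are descriptions without a test.

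**Figure D1:**
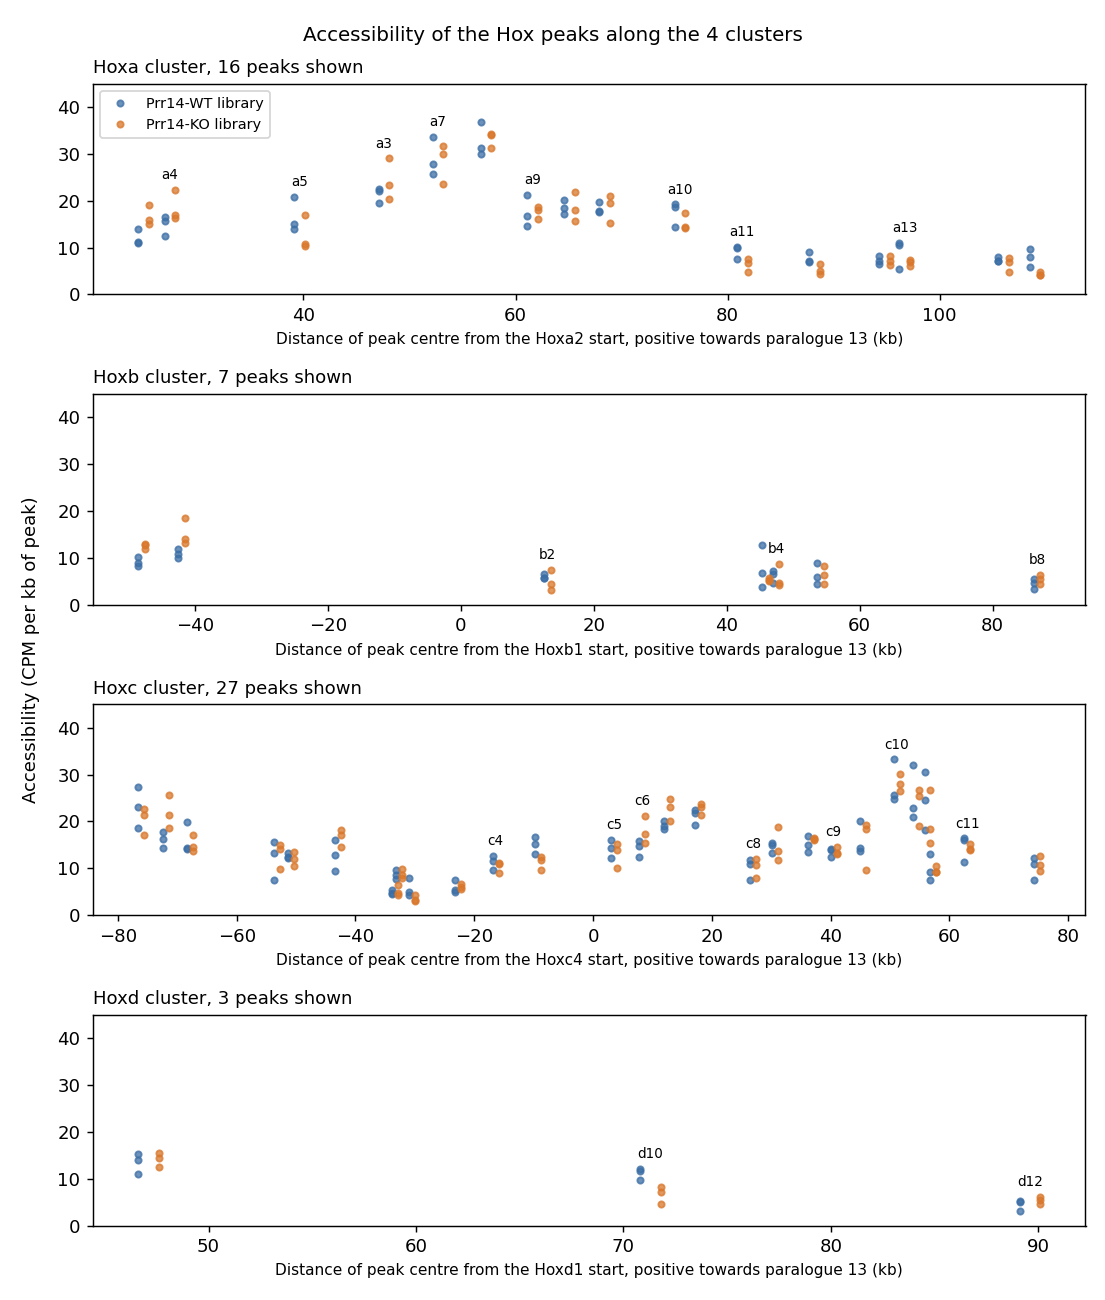
Accessibility of 53 Hox peaks in CPM per kb of peak (vertical axis) against the distance in kb of its centre from the RefSeq start of Hoxa2, Hoxb1, Hoxc4 or Hoxd1 (horizontal axis, positive towards paralogue 13), with 1 point per library, Prr14-WT in blue and Prr14-KO in orange, and promoter peaks named. From Hoxa4 the levels rise to the highest peaks of Hoxa at Hoxa7 and decline towards Hoxa13, the named promoter of Hoxc10 is the highest of Hoxc, and Hoxb and Hoxd hold few peaks.

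No peak was annotated to 15 Hox genes. These were Hoxa2 and Hoxa6, then Hoxb3, Hoxb5, Hoxb6, Hoxb7, Hoxb9 and Hoxb13, then Hoxc13, and lastly Hoxd1, Hoxd4, Hoxd8, Hoxd9, Hoxd11 and Hoxd13. The annotation names each peak for 1 gene, so a gene on this list can still be crossed by a peak named for a neighbour. That was so for Hoxb3, whose RefSeq span holds the 3 peaks named for Hoxb4. A gene with no peak held no region in the authors' peak list, which does not show that its chromatin was closed.

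Few of the Hox start sites for which a promoter sequence was at hand lay inside a peak. RefSeq promoter windows of 300 bases (250 before to 50 after the start, GRCm38.p6) were at hand for 22 Hox genes, 24 windows in all, and 6 of these (25%) overlapped a peak, against 42.1% of 32851 windows of all genes. The windows came unevenly from the clusters, 10 each from Hoxa and Hoxd, 3 from Hoxb and 1 from Hoxc, so the cluster most covered by peaks was nearly absent. Of the 8 Hoxc genes with no window, the RefSeq start of 4 lay in a peak (Hoxc5, Hoxc9, Hoxc10 and Hoxc11). The Hox windows were rich in the dinucleotide CpG, with a median of 14.5 per window against 7.0 over all windows. Among windows with at least that many, 82.0% of 11378 overlapped a peak, and 4 of the 12 Hox windows did, all 12 from Hoxa and Hoxd. These shares are descriptions without a test. The 6 Hox windows that overlapped a peak had a median of 17.5 CpG, above the 14.5 of all 24, and those outside peaks a lower one. This difference was not tested either. Shown are 3 windows that overlap a peak and the 2 with the most CpG, which do not, with every CpG in capitals. They were picked because overlap did not follow CpG number among them, so they do not stand for the 24 windows. Hoxa3 (chr6:52213018-52213317, minus strand, 20 CpG), Hoxa11 (chr6:52245761-52246060, minus strand, 15 CpG) and Hoxd10 (chr2:74691641-74691940, plus strand, 22 CpG) overlapped a peak. Hoxa13 (chr6:52260831-52261130, minus strand, 45 CpG) and Hoxd13 (chr2:74667975-74668274, plus strand, 37 CpG) did not. Neither did 5 of the 8 windows of paralogues 3, 10 and 11.
Hoxa3 promoter: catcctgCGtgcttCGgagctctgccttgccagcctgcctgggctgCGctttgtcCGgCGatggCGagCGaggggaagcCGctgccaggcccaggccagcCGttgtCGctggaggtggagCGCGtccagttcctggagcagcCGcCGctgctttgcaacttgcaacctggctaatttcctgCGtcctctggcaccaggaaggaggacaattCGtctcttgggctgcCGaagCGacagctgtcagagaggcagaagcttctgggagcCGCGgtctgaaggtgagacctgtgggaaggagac
Hoxa11 promoter: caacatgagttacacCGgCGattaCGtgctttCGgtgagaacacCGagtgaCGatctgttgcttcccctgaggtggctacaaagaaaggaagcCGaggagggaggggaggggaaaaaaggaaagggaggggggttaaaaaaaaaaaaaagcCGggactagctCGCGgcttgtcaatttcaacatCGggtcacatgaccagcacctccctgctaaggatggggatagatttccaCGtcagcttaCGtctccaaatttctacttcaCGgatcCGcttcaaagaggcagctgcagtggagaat
Hoxd10 promoter: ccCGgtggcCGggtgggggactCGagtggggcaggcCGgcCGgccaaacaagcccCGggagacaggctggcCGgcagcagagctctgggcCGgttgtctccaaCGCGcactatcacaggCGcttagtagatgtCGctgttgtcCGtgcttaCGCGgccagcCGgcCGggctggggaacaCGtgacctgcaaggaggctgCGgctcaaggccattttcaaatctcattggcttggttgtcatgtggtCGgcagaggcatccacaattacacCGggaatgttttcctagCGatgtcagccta
Hoxa13 promoter: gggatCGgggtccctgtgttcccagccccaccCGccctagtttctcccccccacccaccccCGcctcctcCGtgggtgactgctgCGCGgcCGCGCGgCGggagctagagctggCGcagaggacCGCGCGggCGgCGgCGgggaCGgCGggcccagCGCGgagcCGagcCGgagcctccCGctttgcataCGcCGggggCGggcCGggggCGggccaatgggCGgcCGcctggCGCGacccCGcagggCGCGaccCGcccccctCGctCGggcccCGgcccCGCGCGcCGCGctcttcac
Hoxd13 promoter: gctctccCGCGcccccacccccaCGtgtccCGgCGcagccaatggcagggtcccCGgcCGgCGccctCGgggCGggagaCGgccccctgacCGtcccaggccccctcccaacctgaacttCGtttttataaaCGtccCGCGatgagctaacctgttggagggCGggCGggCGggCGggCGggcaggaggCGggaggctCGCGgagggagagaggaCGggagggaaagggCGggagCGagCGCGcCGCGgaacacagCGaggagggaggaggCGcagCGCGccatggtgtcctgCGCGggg

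A search on both strands for TGATTNAT, the form of site that Hox proteins bind with their Pbx cofactors, found it in 2 of the 24 Hox windows (8.33%), those of Hoxa2 and Hoxd11, against 3.22% of all windows. CCAAT was found in 15 (62.5%, against 37.4%) and TATAAA in 4 (16.7%, against 13.6%). Matches of different motifs may overlap, and a match is a run of letters and not a measured site. Both windows with TGATTNAT lay outside peaks.

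The promoter peak of a gene was taken as its annotated peak nearest the start site, within 3000 bases, and 20 genes had one. Such a peak need not cover the start itself. Among these genes, the RefSeq windows of Hoxa7, Hoxa9, Hoxa10, Hoxa13, Hoxb8 and Hoxd12 overlapped no peak. For Hoxa7 and Hoxa9 the RefSeq window lies at a start other than the one in the deposited annotation. Their promoter peaks, 867 and 1583 bases wide, were centred 40 and 235 bases before the annotated start and covered it. The promoter peaks of Hoxd12 and Hoxb8 were centred 1591 and 2873 bases before the annotated start. In Prr14-WT the highest promoter levels were at Hoxa7 (29.1 ± 4.08 CPM per kb), which patterns the trunk, Hoxc10 (27.9 ± 4.68), a gene of the lumbar region and hindlimb, and Hoxa3 (21.4 ± 1.66), which patterns the pharynx and neck. The Hoxa3 peak lies 47.6 kb from the Hoxa2 start, between the promoter peaks of Hoxa5 (39.6 kb) and Hoxa7 (52.7 kb). It covers the start of a long RefSeq span of Hoxa3 that also holds Hoxa4, Hoxa5 and Hoxa6. Hoxa7 and Hoxc10 did not differ beyond their spread. A middle group of 8 promoters ran from Hoxa9 (17.5 ± 3.42) and Hoxa10 (17.4 ± 2.56) over Hoxa5 (16.6 ± 3.69), Hoxa4 (14.9 ± 2.19), Hoxc11 (14.6 ± 2.79), Hoxc6 (14.4 ± 1.79) and Hoxc5 (14.3 ± 1.88) to Hoxc9 (13.4 ± 0.903), each within the spread of its neighbour.

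Below them came Hoxc4 (11.3 ± 1.49 CPM per kb), Hoxd10 (11.2 ± 1.23), then Hoxc8, Hoxa11 (9.17 ± 1.49) and Hoxa13 (9.01 ± 3.11), again with overlapping spreads. The lowest promoters were those of Hoxb4 (6.18 ± 1.26), Hoxb2 (5.99 ± 0.509), Hoxb8 (4.55 ± 1.11) and Hoxd12 (4.48 ± 1.23). Within Hoxa the lowest promoters were those of Hoxa11 and Hoxa13, genes that pattern the lower leg and foot. Hoxa9 and Hoxa10, which pattern the thigh segment, stood in the middle of the order, as did Hoxc11 (14.6 ± 2.79). The Hoxa13 value rests on 31, 17 and 23 counts in Prr14-WT replicates 3, 4 and 8. A relation of level to limb segment was not tested.

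Over paralogues 2 to 13 the largest summed levels in Prr14-WT were those of paralogues 4 (197 ± 9.90 CPM over 17 peaks), 10 (158 ± 17.6 over 7 peaks) and 9 (135 ± 10.3 over 5 peaks). Paralogues 6 (91.9 ± 6.72 CPM), 7 (71.1 ± 6.09), 11 (53.4 ± 8.94) and 3 (52.8 ± 4.44) followed, then 5 (34.6 ± 5.03) and 8 (24.1 ± 2.31). The smallest sums were those of paralogues 13 (15.9 ± 1.31), 12 (13.4 ± 3.25) and 2 (2.90 ± 0.247). These sums rest on how peaks were named. Of the 12 Hoxc4 peaks, 10 lay beyond the cluster and together held 118 ± 8.02 CPM, while the 2 within it held 39.2 ± 1.54 CPM. Both Hoxb1 peaks lay outside the cluster, 42105 and 48055 bases from the annotated start, so no peak crossed Hoxb1 itself.

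**Figure D2:**
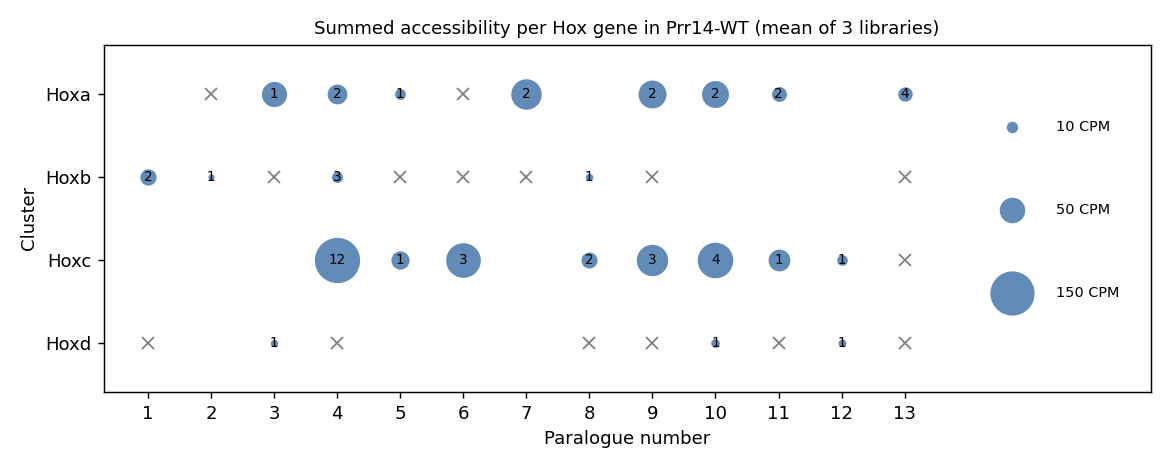
Summed accessibility of 38 Hox genes in Prr14-WT, with clusters in rows and paralogue numbers in columns; the area of a circle stands for the mean CPM of 3 libraries summed over the gene's peaks, the number in it counts those peaks, and a cross marks a gene with no peak. Hoxc4 has the largest sum, over 12 peaks, while 6 genes each of Hoxb and Hoxd are crosses.

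The Hox peak with the most counts was annotated to Hoxc6 (ENSMUSG00000001661), a gene of the thoracic region, and spanned 3523 bases (chr15:102998747-103002269). It had 78.8, 76.7 and 67.5 CPM in Prr14-WT and 75.1, 81.5 and 83.3 CPM in Prr14-KO, and the groups overlapped. The deposited class of this peak is intergenic, 9065 bases from the annotated start, but it lies within the RefSeq span of Hoxc6. The highest level per length was at a Hoxa7 peak (ENSMUSG00000038236, chr6:52221288-52222691), with 43.9, 51.7 and 42.0 CPM in Prr14-WT and 43.8, 47.7 and 48.0 CPM in Prr14-KO. That is 32.7 ± 3.66 and 33.1 ± 1.65 CPM per kb, and 97.3% of all peaks in the table were lower than it in Prr14-WT. The promoter peak of Hoxc10 (ENSMUSG00000022484, chr15:102965869-102968208) had 58.1, 77.8 and 59.8 CPM in Prr14-WT and 61.9, 70.7 and 65.5 in Prr14-KO, and stood above 95.3% of peaks.

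The lowest level per length was at the other end of this range. Among the Hoxa peaks described it was at the Hoxa13 peak over its body (chr6:52259297-52260007, 7.26 ± 0.826 CPM per kb in Prr14-WT), and in Hoxc at a peak annotated to Hoxc4 from 17113 bases away (chr15:103050998-103052017, 4.84 ± 0.398). In Hoxb it was at the promoter peak of Hoxb8 (chr11:96278560-96279503, 4.55 ± 1.11), where the 2 distal Hoxb1 peaks were the highest, the upper one at 10.9 ± 1.01 (chr11:96407301-96408413). In Hoxd it was at that of Hoxd12 (chr2:74672902-74673941, 4.48 ± 1.23), and the highest of the 3 was an intronic peak of Hoxd3 (chr2:74715773-74716081, 13.5 ± 2.17). Counts were low at some peaks, down to 9 in a library at a Hoxb4 peak, so that their levels carry a large counting error.

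The clusters also carry microRNA genes, and 2 of 6 lay inside a Hox peak. Mir196b lay in the upstream Hoxa9 peak (chr6:52229026-52230751), which had 31.7, 34.8 and 29.7 CPM in Prr14-WT and 27.0, 31.2 and 37.7 CPM in Prr14-KO. Mir615 lay in the Hoxc5 promoter peak (chr15:103013654-103015442), which had 28.7, 22.0 and 25.8 CPM in Prr14-WT and 18.1, 24.8 and 27.3 CPM in Prr14-KO. At both peaks the groups overlapped. Mir196a-2 lay 509 bases from a Hoxc9 peak and Mir10a 842 bases from the Hoxb4 promoter peak, while Mir10b and Mir196a-1 were 9989 and 13295 bases from the nearest. The mature sequences show that the microRNA gene in open Hoxa chromatin shares its seed (bases 2 to 8, in capitals) with the one encoded in Hoxc and Hoxb, and that miR-615 does not; they are given as RefSeq lists them.
miR-196b-5p: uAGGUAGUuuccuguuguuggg
miR-196a-5p: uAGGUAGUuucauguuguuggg
miR-615-3p: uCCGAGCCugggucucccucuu

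Between Prr14-KO and Prr14-WT the peaks described differed little as a whole. Summed over its peaks, Hoxa had 307 ± 18.9 CPM in Prr14-WT and 312 ± 32.2 in Prr14-KO, Hoxc 512 ± 35.9 and 517 ± 31.5, Hoxb 36.7 ± 3.81 and 44.0 ± 3.75, and Hoxd 14.5 ± 0.884 and 13.4 ± 0.879. In each cluster the libraries of the 2 groups overlapped. The log2 fold changes of the 53 peaks had a median of 0.00 (quartiles -0.18 and 0.10), against -0.01 (quartiles -0.31 and 0.22) over all peaks tested.

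All 53 peaks passed the filter on low counts, and with the quasi-likelihood test of edgeR 0 were higher and 0 lower in Prr14-KO at an adjusted p below 0.05. Over all 73896 peaks tested, 2.77% were higher and 4.23% lower. At an unadjusted p below 0.05 there were 3 higher and 5 lower Hox peaks, together 15.1%, against 17.0% of all peaks. DESeq2 also called 0 in either direction. In the authors' deposited table, which gives an adjusted p for 52 of the 53, 0 were higher and 0 lower, against 2.44% and 0.872% of all peaks. The groups did not overlap at 4 Hox peaks that were higher in Prr14-KO and 5 that were lower, of 53, against 9.17% and 11.2% of all peaks.

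Counts summed per gene gave the same picture for 23 Hox genes. With edgeR 0 were higher and 0 lower, against 1.82% higher and 3.01% lower of 15961 genes, and DESeq2 also called 0. At an unadjusted p below 0.05 there were 2 higher and 2 lower, together 17.4%, against 15.7% of all genes. The higher were Hoxb1 and Hoxa4 (log2 fold change 0.42 ± 0.14, edgeR adjusted p = 0.108), and the lower were Hoxa11 (-0.55 ± 0.18, edgeR adjusted p = 0.102) and Hoxd10 (-0.77 ± 0.33, edgeR adjusted p = 0.249).

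In Hoxa the clearest separation upwards among the peaks described was at Hoxa4, which patterns the neck. Its larger peak (ENSMUSG00000000942, chr6:52188772-52190755) had 22.3, 27.8 and 21.7 CPM in Prr14-WT and 31.5, 37.7 and 29.7 CPM in Prr14-KO. The groups did not overlap, but the log2 fold change of 0.46 ± 0.19 did not pass the edgeR test (adjusted p = 0.142). Without Prr14-WT replicate 4, the highest of its group, it did (0.61, edgeR adjusted p = 0.0348). Without Prr14-KO replicate 5, the highest of the other group, the value was 0.38 (edgeR adjusted p = 0.522). Without Prr14-WT replicate 3 it was 0.43 (edgeR adjusted p = 0.325). The smaller Hoxa4 peak, at the promoter, had a log2 fold change of 0.32 ± 0.26 (0.20 without Prr14-KO replicate 5), and the Hoxa3 promoter peak, with 51.3, 50.3 and 44.4 CPM in Prr14-WT and 46.2, 66.1 and 53.4 in Prr14-KO, one of 0.18 ± 0.18. Hoxa5 lay the other way, with 11.4, 8.28 and 7.63 CPM in Prr14-WT and 5.65, 5.92 and 9.25 in Prr14-KO, a log2 fold change of -0.40 ± 0.25 and overlapping groups. That value was -0.18 without Prr14-WT replicate 3, -0.25 without Prr14-KO replicate 5 and -0.63 without Prr14-KO replicate 7.

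Values in the middle of Hoxa were nearly equal in both genotypes. The 5 peaks of Hoxa7, Hoxa9 and the body of Hoxa10 had log2 fold changes from -0.03 to 0.02. The body peak of Hoxa10 (chr6:52232171-52234257), for example, had 41.3, 37.2 and 36.7 CPM in Prr14-WT and 31.7, 40.6 and 43.9 in Prr14-KO.

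At the posterior end the values of Hoxa11 were lower in Prr14-KO without passing the test. The Hoxa13 peak within the cluster was nearly equal, at 5.16 ± 0.587 CPM in Prr14-WT and 5.08 ± 0.723 in Prr14-KO. The Hoxa11 promoter peak (ENSMUSG00000038210, chr6:52245780-52246749), which also covers the antisense transcript Hoxa11os, had 9.88, 9.57 and 7.24 CPM in Prr14-WT and 4.70, 6.58 and 7.32 in Prr14-KO. The highest Prr14-KO library lay just above the lowest Prr14-WT library. Its log2 fold change was -0.52 ± 0.25 (edgeR adjusted p = 0.256). The Hoxa11 peak farther upstream (chr6:52252482-52253521) had 7.10, 9.39 and 7.5 CPM in Prr14-WT and 5.23, 6.74 and 4.49 in Prr14-KO, with no overlap and a log2 fold change of -0.54 ± 0.26 (edgeR adjusted p = 0.255). The 4 Hoxa13 peaks had log2 fold changes from -0.84 to -0.01, none past the test, and the groups did not overlap at the last of them, 13205 bases beyond the annotated start.

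**Figure D3:**
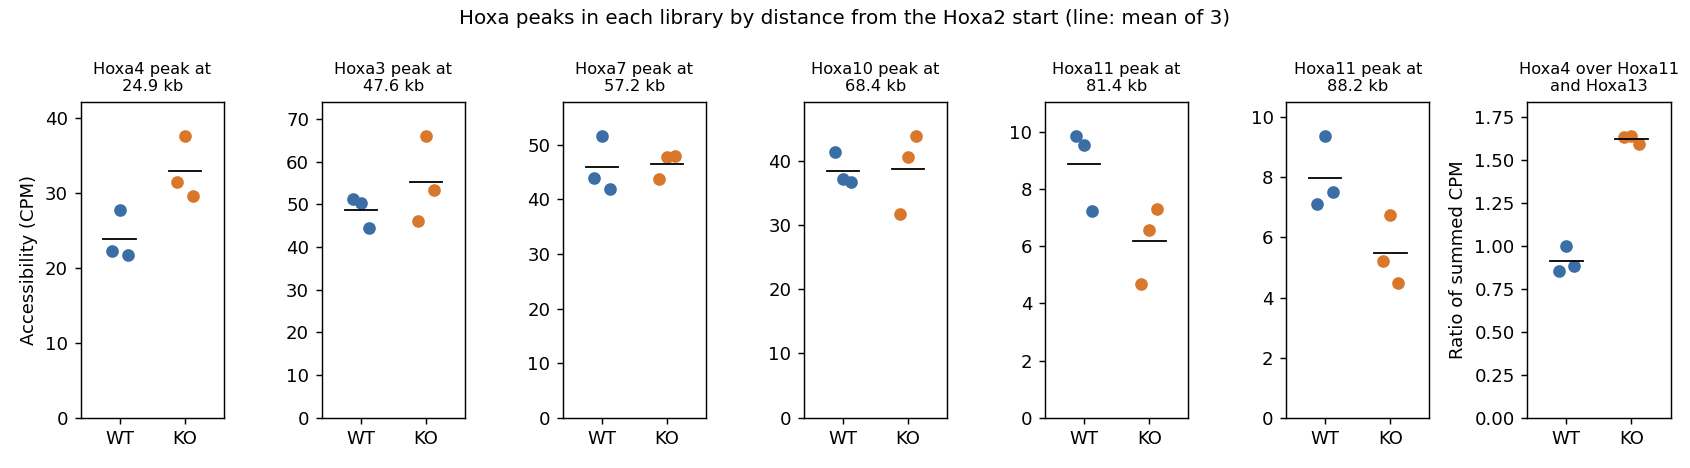
Accessibility in CPM of 6 Hoxa peaks in each library (first 6 panels, ordered by distance from the Hoxa2 start, each with its own axis from 0) and the ratio of summed CPM at Hoxa4 to that at Hoxa11 and Hoxa13 (last panel); points are libraries, Prr14-WT in blue and Prr14-KO in orange, and lines are means of 3. The groups are apart at Hoxa4, overlap at Hoxa3, Hoxa7 and Hoxa10, and the ratio is 0.852 to 0.997 in Prr14-WT and 1.59 to 1.64 in Prr14-KO. The genes of the ratio were picked after their values were seen, so its separation was built in.

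From Hoxa4 to Hoxa11 the log2 fold changes of the Hoxa peaks were thus ordered from high to low, with Hoxa5 below its neighbours and the Hoxa13 peak in the cluster above its own. Over the 13 peaks described within the cluster, the correlation of log2 fold change with distance from the Hoxa2 start was r = -0.64 (Spearman's rho = -0.64), and r lay between -0.72 and -0.49 when each library was left out in turn. Over the 17 peaks within Hoxc, the same measure was r = 0.08, from -0.06 to 0.35 with each library left out. The points share the same 6 libraries and neighbouring peaks are not independent, so these values are descriptions without a test, and the measure was chosen after the values were seen.

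**Figure D4:**
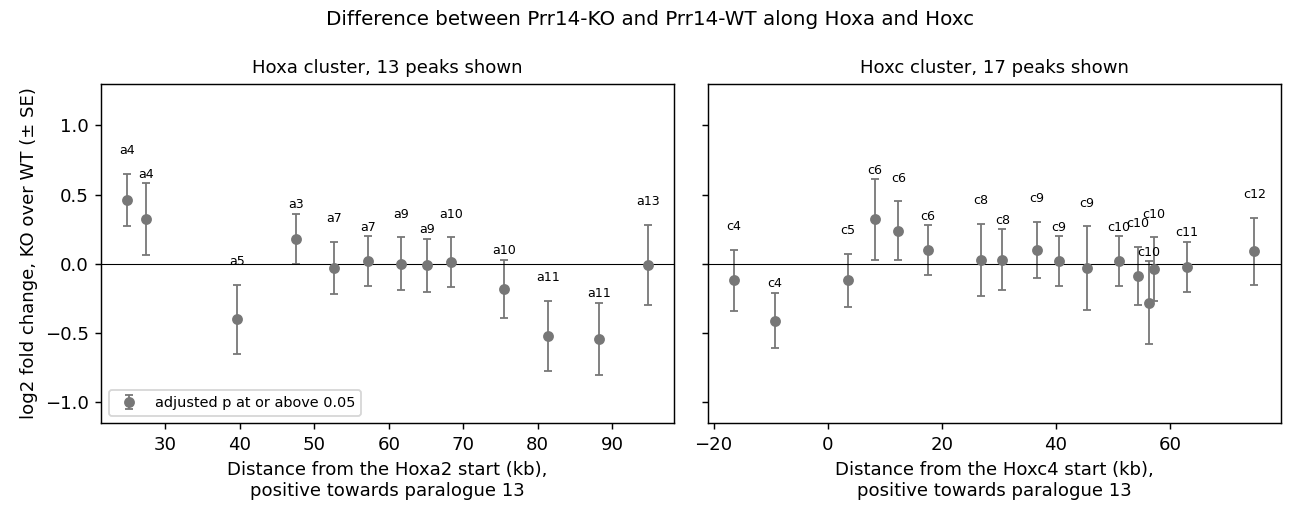
Log2 fold change of Prr14-KO over Prr14-WT (vertical axis, error bars SE) of peaks within the Hoxa cluster (left, 13 peaks) and the Hoxc cluster (right, 17 peaks) against its distance in kb from the RefSeq start of Hoxa2 or Hoxc4 (horizontal axis, positive towards paralogue 13), with each peak labelled by its annotated gene. The Hoxa values run from 0.46 at Hoxa4 to -0.54 upstream of Hoxa11, and the Hoxc values lie on both sides of 0 along the cluster.

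A ratio between peaks of the same library does not depend on how libraries are scaled. The 2 peaks of Hoxa4, divided by the 6 peaks of Hoxa11 and Hoxa13, gave 0.852, 0.997 and 0.881 in Prr14-WT and 1.63, 1.64 and 1.59 in Prr14-KO. Of the 6 peaks, 3 of Hoxa13 lie beyond the cluster; with the 3 within it, the ratios were 1.26, 1.42 and 1.38 in Prr14-WT and 2.54, 2.43 and 2.25 in Prr14-KO. Both ways every Prr14-KO library lay above every Prr14-WT library. The ratio of Hoxc4, Hoxc5 and Hoxc6 to Hoxc9, Hoxc10, Hoxc11 and Hoxc12, over peaks within the Hoxc cluster, was 0.726 ± 0.0797 in Prr14-WT and 0.716 ± 0.0448 in Prr14-KO. The ratios are not built alike. That of Hoxa sets Hoxa4 alone on its upper side and leaves out Hoxa3 and Hoxa5 (log2 fold changes 0.18 and -0.40). That of Hoxc pools Hoxc4, Hoxc5 and Hoxc6. The genes in these ratios were picked after their values were seen, so no test is given. Hoxa4 was chosen as high and Hoxa11 as low in Prr14-KO, so a separation of the groups in the Hoxa ratio was built in. It adds no evidence to the values of the single peaks.

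In Hoxc none of the 27 peaks passed the edgeR test in either direction, and 3 had an unadjusted p below 0.05, all of them annotated to Hoxc4, which patterns the neck and upper trunk. The intronic Hoxc4 peak (ENSMUSG00000075394, chr15:103026525-103028268) had 22.8, 29.0 and 26.6 CPM in Prr14-WT and 21.5, 20.6 and 17.0 in Prr14-KO, with a log2 fold change of -0.41 ± 0.20 and no overlap (edgeR adjusted p = 0.248). A peak 14177 bases from the annotated start had 4.84, 4.23 and 7.63 CPM in Prr14-WT and 2.93, 4.11 and 3.11 in Prr14-KO (-0.69 ± 0.32, edgeR adjusted p = 0.216), and its log2 fold change was -0.37 without Prr14-WT replicate 8. One 55559 bases away lay the other way, with 20.1, 18.5 and 16.3 CPM in Prr14-WT and 24.2, 29.0 and 21.1 in Prr14-KO (0.43 ± 0.20, edgeR adjusted p = 0.208). Peaks of a single gene name thus differed in sign.

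The promoter peaks of Hoxc5, Hoxc6, Hoxc8, Hoxc9, Hoxc10 and Hoxc11 had log2 fold changes between -0.12 and 0.32. That of Hoxc9 (ENSMUSG00000036139), with 55.2, 54.1 and 48.6 CPM in Prr14-WT and 52.1, 57.0 and 50.8 in Prr14-KO, overlapped between the groups, and so did that of Hoxc11 (ENSMUSG00000001656), at 36.5 ± 6.97 and 36.1 ± 1.75 CPM. The Hoxc12 peak, 6515 bases from the annotated start, had a log2 fold change of 0.09 ± 0.24.

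In Hoxb both distal Hoxb1 peaks (ENSMUSG00000018973) were higher in every Prr14-KO library than in any Prr14-WT library. The nearer had 12.1, 11 and 13.3 CPM in Prr14-WT and 14.6, 20.6 and 15.7 in Prr14-KO (log2 fold change 0.49 ± 0.21, edgeR adjusted p = 0.179). The farther had 9.05, 7.82 and 7.24 CPM in Prr14-WT and 10.5, 11.3 and 11.4 in Prr14-KO (0.45 ± 0.24, edgeR adjusted p = 0.312). Neither passed the test, nor did their sum (0.46 ± 0.15, edgeR adjusted p = 0.0827). They lie between Hoxb1 and the next genes outside the cluster, so their assignment to Hoxb1 rests on nearness. The 5 peaks within Hoxb had log2 fold changes from -0.51 to 0.26 at 1.31 to 5.12 mean CPM in Prr14-KO, all with overlapping groups.

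In Hoxd the promoter peak of Hoxd10 (ENSMUSG00000050368, chr2:74691377-74691885), which patterns the hindlimb and lumbar region with Hoxa10 and Hoxc10, had 6.17, 5.98 and 5.0 CPM in Prr14-WT and 4.18, 2.38 and 3.66 in Prr14-KO. The groups did not overlap, and the log2 fold change of -0.76 ± 0.32 did not pass the edgeR test (adjusted p = 0.144). Neither other promoter of paralogue 10 passed the test, and the promoter peak of Hoxa10 had a log2 fold change of -0.18 ± 0.21 and that of Hoxc10 one of 0.02 ± 0.18. The Hoxd3 and Hoxd12 peaks had log2 fold changes of 0.06 ± 0.32 and 0.28 ± 0.29.

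By paralogue number, at paralogue 13 the sums were 15, 15.2 and 17.4 CPM in Prr14-WT and 13.4, 15.1 and 11.1 in Prr14-KO, all from Hoxa13, and they overlapped. Paralogues 9 and 10 had 135 ± 10.3 and 158 ± 17.6 CPM in Prr14-WT and 137 ± 6.38 and 153 ± 14 in Prr14-KO.

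Peaks named for other genes lie in and around the clusters. The 1 peak within Hoxa that was named for no Hox gene, but for 5730596B20Rik, had a log2 fold change of 0.12 ± 0.22 (edgeR adjusted p = 0.860), and of 35 such peaks within the cluster or 500 kb on either side 0 were called in either direction. Within 500 kb of Hoxc 1 of 67 peaks was lower, near Atp5g2 (log2 fold change -0.73), and within 500 kb of Hoxd 1 of 29, near Lnpk (-0.75). Within 500 kb of Hoxb 3 of 39 (7.69%) were higher, near Zfp652 (1.24) and Atp5g1 (1.29 and 0.87). Over all peaks 2.77% were higher and 4.23% lower.

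Genes that act with Hox proteins or on Hox clusters were examined as counts summed per gene. Of 8 TALE homeodomain cofactors of Hox proteins (Pbx, Meis and Pknox genes) 0 rose and 0 fell, with Pbx4 at 0.36 ± 0.15 and Pknox2 at -0.23 ± 0.13. Of 26 Polycomb and trithorax genes with peaks 1 rose, Phc2, a subunit of Polycomb repressive complex PRC1 (80.7 ± 1.87 CPM in Prr14-WT and 107 ± 5.91 in Prr14-KO, log2 fold change 0.41 ± 0.11, edgeR adjusted p = 0.0272), and 0 fell. The methyltransferase genes Ezh1 and Ezh2 were at -0.01 ± 0.14 and 0.13 ± 0.11. Of 11 activators and organisers of Hox clusters, such as retinoic acid receptors, Cdx2 and Ctcf, 0 rose and 0 fell, and so it was for 9 limb identity genes, 7 ParaHox and related genes and 18 genes that flank the clusters. For these sums the background is the 1.82% higher and 3.01% lower of all genes.

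Single peaks of these genes are given beside the sums, against a background of 2.77% higher and 4.23% lower over all peaks. Of 74 cofactor peaks 0 were higher and 2 lower, both in introns of Pknox2, with log2 fold changes of -0.72 ± 0.22 (edgeR adjusted p = 0.0212) and -0.66 ± 0.21 (edgeR adjusted p = 0.0304). Of 174 peaks of Polycomb and trithorax genes 6 were higher and 9 lower. The lower were 2 of Eed, a core subunit of the Polycomb complex PRC2 (-1.79 ± 0.26, edgeR adjusted p = 5.42e-09, and -1.02 ± 0.26), 6 of Jarid2, a PRC2 cofactor, and 1 of Kmt2a. Both Eed peaks were intergenic, 12409 and 35986 bases from the annotated start. The lower Jarid2 peaks were intergenic, 288369 to 367892 bases away, apart from an intronic one at 36738 bases. Summed per gene, Eed (-0.23 ± 0.12, edgeR adjusted p = 0.377) and Jarid2 (-0.22 ± 0.12, edgeR adjusted p = 0.439) were not called. The higher were 2 of Phc2 and 1 each of Phc3, Ash2l, Mtf2 and Jarid2. Of 63 peaks of limb identity genes 2 were higher, of Pitx1 (0.78 ± 0.21) and Lmx1b (0.97 ± 0.31), and 2 lower, both of En1 (-0.90 ± 0.24 and -0.64 ± 0.19). The Pitx1 and En1 peaks were intergenic, 42647 to 160504 bases from the annotated start. Of 107 peaks of activators and organisers 1 was lower, of Nr6a1, and of 138 peaks of flanking genes 1, of Lnpk. Among 23 peaks of ParaHox and related genes 0 were called.

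Markers of other cell types are given beside these values because muscle holds them. Summed over its list, satellite cell markers had 203 to 234 CPM in Prr14-WT and 278 to 310 in Prr14-KO, where 1 of 5 genes rose, Pax7 (54.1 ± 10.1 and 90.8 ± 9.58 CPM, log2 fold change 0.75 ± 0.13, edgeR adjusted p = 0.00148), and the other members did not pass the test. Sdc4, the largest of the list, was at 142 ± 21.0 and 176 ± 15.9 CPM (0.31 ± 0.12, edgeR adjusted p = 0.197), and Myf5, Calcr and Vcam1 were at -0.19 ± 0.22, -0.28 ± 0.33 and -0.33 ± 0.27. Of 10 muscle fibre markers 3 fell, the fast myosin genes Myh4 (-1.16 ± 0.19) and Myh1 (-1.41 ± 0.17) and the light chain gene Myl1 (-0.84 ± 0.13). Fibro-adipogenic markers had 258 to 351 CPM in Prr14-WT and 280 to 360 in Prr14-KO, and 0 of 6 were called. Tenocyte markers (161 to 207 and 187 to 221 CPM), smooth muscle markers (134 to 145 and 138 to 145), Schwann cell markers (132 to 161 and 159 to 179), adipocyte markers (39.1 to 58.4 and 46.8 to 59.2) and macrophage markers (55.1 to 56.8 and 41.3 to 51.6) had 0 calls over summed genes. Of 6 endothelial markers (272 to 336 and 293 to 340 CPM) 1 rose, Cldn5, and 1 fell, Emcn. As single peaks, 5 of 22 satellite cell peaks were higher, 4 of Pax7 and 1 of Sdc4, and of 108 fibre peaks 1 was higher and 25 lower. Of 51 endothelial peaks 3 were higher and 2 lower. Of 22 smooth muscle peaks 3 were higher (Myh11, Notch3 and Cnn1), of 16 tenocyte peaks 1 (Thbs4) and of 21 Schwann cell peaks 1 (Mbp), and of 11 macrophage peaks 1 was lower (Mrc1). Tnmd, Cd68 and C1qa had no peak. The part of these cell types in the values at the Hox peaks was not tested.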

How the data were processed

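ATAC-seq of quadriceps muscle was compared between 3 Prr14-WT and 3 Prr14-KO libraries. The authors deposited 1 list of 75134 peaks on GRCm38 with whole-number counts per peak and library, and DESeq2 1.6.3, bedtools, deepTools, MACS2, BWA and Trimmomatic stand in the submitters' processing notes, with no role or order. How peaks were merged, reads shifted, duplicates treated and counts made is not given in the sources used here. Beside the counts, the authors deposited a normalized signal, which is the count divided by 1 factor per library, a score per peak (not used), a log2 fold change, and p-values raw and adjusted. Peaks carry 1 gene name each, assigned in the deposited annotation by nearness.

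Counts were tested over the whole table by edgeR 4.0.16 in R 4.3.3 (quasi-likelihood test, two-sided, TMM factors). Its filterByExpr, with a minimum count of 10 and a minimum total of 15, kept 73896 peaks. The same was done over 15961 genes after summing counts per annotated gene. Calls used a Benjamini-Hochberg adjusted p below 0.05. The script was tested on simulated data. Levels are CPM with TMM scaling, as mean ± SD of 3 libraries, and CPM per kb divides by peak length. Counts in peaks were 7608514 to 12061822 per library, with a common biological coefficient of variation of 0.201. Promoter windows, microRNA sequences and gene spans are from RefSeq tables of GRCm38.p6.

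Named with values were the Hox peaks past the test, each Hox gene's promoter peak, and the highest and lowest peak per length of each cluster; other peaks named in the text, those at an unadjusted p below 0.05 among them, and Pbx4, Pknox2, Ezh1, Ezh2, the called single peaks of listed or flanking genes and the markers outside that rule, were chosen after their values were seen. Values of 3 of the 56 Hox peaks and of 1 listed cofactor gene are not reported here. The members and gene lists were chosen with earlier results of these data known. Alternatives were DESeq2 1.42.0, the authors' library factors in edgeR, library totals without TMM, no filter on low counts, leaving out each library, other summaries of the cluster levels, and the authors' adjusted p.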

Additional observations from a re-analysis of the deposited data

How the results depend on the processing

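No paired analysis was possible because the groups share a single replicate number, 4, which is fewer than 2. The count of Hox peaks higher in Prr14-KO, 0, ranged from 0 to 1 when each library was left out, with Hoxa4 called without Prr14-WT replicate 4; the count of genes with summed counts did the same, from 0 to 1, again with Hoxa4. The counts lower stayed at 0 in every setting run. The median log2 fold change of Hox peaks was 0.20 with the authors' factors, where that of all peaks was 0.19, and -0.01 to 0.07 with a library left out. Over all peaks, the authors' factors gave 1620 higher and 752 lower calls, against 2049 and 3128, and leaving out Prr14-KO replicate 5 gave 959 and 1511. Prr14-WT levels per kb were 16.8 to 17.7 at Hoxa, 7.14 to 7.85 at Hoxb, 14.8 to 15.9 at Hoxc and 7.55 to 7.98 at Hoxd with a library left out. As medians of peaks they were 15.8 at Hoxa, 6.43 at Hoxb and 11.2 at Hoxd, and from promoter peaks alone 18.3 at Hoxa, 5.32 at Hoxb and 6.70 at Hoxd. The cause of these changes was not tested. None of the 31 values that changed sign, at 11 of 25 named peaks, had passed the test. With the authors' factors they were 0.17 at the Hoxa7 promoter, 0.03 at Hoxa10, 0.13 at Hoxb4, 0.10 at Hoxc4, 0.10 at Hoxc5, 0.16 at Hoxc11 and 0.20 at the lowest Hoxa13 peak; with library totals 0.01 at Hoxa7, 0.03 at Hoxc11 and 0.03 at that Hoxa13 peak; with no filter 0.01 at Hoxc11 and 0.01 at that Hoxa13 peak; with DESeq2 0.01 at that Hoxa13 peak. With each library left out in turn the log2 fold changes were -0.09 to 0.10 at the Hoxa7 promoter, -0.45 to 0.14 at Hoxb4, -0.22 to 0.03 at Hoxc5, -0.13 to 0.20 at Hoxc8, -0.04 to 0.19 at Hoxc10, -0.11 to 0.10 at Hoxc11, -0.10 to 0.12 at the lowest Hoxa13 peak, -0.06 to 0.22 at the lowest Hoxc4 peak and -0.01 to 0.18 at Hoxd3. The smallest count of a Hox peak in a library was 9, which limits what could be detected at the small peaks.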
